A study of Rattus norvegicus with 16 samples.

Results

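The genes described here are the eotaxins and the eosinophil genes of rat lung and adipose tissue. They were chosen by symbol as Ccl11, Ccl24, Ccr3, Il5, Il5ra, Epx and Prg2, without regard to their values. These are 7 of the 16678 gene symbols that the array probes could be assigned to. Each of the 7 genes was read by 1 probe, and the same probe was used in both tissues.

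Whole lung and adipose tissue of 8 male Brown Norway rats were compared on 16 arrays of 1 color, 1 array per rat and tissue. The labels and the paper give an age of 7 weeks without saying that it is the age at tissue collection. Sensitization lasted 3 weeks with 1 subcutaneous dose a week, and challenge lasted another 3 weeks with 3 intranasal doses a week. The 5 rats of the HDM group were given house dust mite (HDM) at both stages, at 45 µg and 120 µg per dose, and the 3 control rats saline at both. All 8 rats were given the adjuvant Al(OH)3 with the subcutaneous doses. The Brown Norway strain is used as a model of allergic airway disease because it mounts strong IgE and eosinophil responses.

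Eosinophils are white blood cells that develop in bone marrow under interleukin 5, travel in blood and enter mucosal tissue in allergy and in infection with helminths. The eotaxins are chemokines made by structural cells and macrophages, and they attract eosinophils through the receptor CCR3 on the cell surface. Il5 and Il5ra encode interleukin 5 and the chain of its receptor that binds it. Epx and Prg2 encode eosinophil peroxidase and major basic protein, both stored in the granules of the cell. Granule protein mRNA is made mainly by maturing cells, while adipose tissue holds resident eosinophils of its own. In whole tissue, more cells of a type and more RNA per cell cannot be told apart.

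In the lung, the probes with the clearest differences were those of Prg2 and Ccl11, on which every HDM rat lay above every control rat. Prg2 was 3.35-fold higher in HDM rats (95% interval 1.66 to 6.75) and Ccl11 was 1.62-fold higher (1.23 to 2.14). Neither passed the threshold of an adjusted p below 0.05 over all probes with a fold change above 1.5, and 0 of the 7 genes were called in the lung. In adipose tissue 0 of the 7 genes were called either, and no gene separated the groups. Between the tissues, the change in Prg2 differed by 1.94 on the log2 scale, with an adjusted p of 0.509 (limma).

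Values are given as the log2 of the spot signal minus the 75th percentile of its array, so that 0 is the level of a probe at that percentile. The level of one probe cannot be set against that of another. The probe that reads Prg2 is shown because this gene carried the widest difference in the lung.

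Prg2 probe: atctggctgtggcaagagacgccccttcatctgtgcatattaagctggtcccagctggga

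The 7 genes lie on 5 chromosomes of the GRCr8 assembly. Prg2 lies at chr3:90469192-90472759. Its neighbor Prg3, which encodes a homolog of major basic protein, lies at chr3:90478627-90484760, with 5.87 kb between them and 0 other genes of the RefSeq table in that interval. Ccl11 lies at chr10:67525975-67530576, Epx at chr10:73164096-73175180 and Il5 at chr10:38375132-38378003. Ccl24 lies at chr12:26737423-26741420, Ccr3 at chr8:132463533-132511601 and Il5ra at chr4:141186749-141221348.

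The granule gene Prg2 is described first. The 3 control lungs stood at -1.80, -1.23 and -2.21, and the 5 HDM lungs at -0.93, 1.10, -0.39, 0.14 and 0.07. On the linear scale of the scanner this was a signal of 84.1 to 187 in control rats and of 206 to 928 in HDM rats, and all 8 spots were well above background. The groups did not overlap, HDM rat 2 was the highest, and HDM rat 1 lay closest to the control rats. The means were -1.75 ± 0.49 (SD, n = 3) and 0.00 ± 0.75 (SD, n = 5), a log2 difference of 1.75 with a standard error of 0.44. The unadjusted p was 0.0041 and the adjusted p was 0.158 (limma), and the exact permutation test over the 56 splits of 8 rats gave p = 0.0357. That difference was larger than those of 99.8% of all probes on the array in the lung. With 5 rats against 3, the exact test cannot give a p below 0.0179. All p-values measure the spread between these rats.

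Epx, the other granule gene among the 7, was dim in the lung. The control lungs stood at -5.28, -5.75 and -6.76, and the HDM lungs at -6.39, -4.01, -5.17, -4.60 and -5.10. Its spot was well above background in 0 of 3 control rats and in 4 of 5 HDM rats, the exception being HDM rat 1. The measured means differed by 0.88 ± 0.54 (SE) on the log2 scale, with an adjusted p of 0.718 (limma), and by 0.16 with normexp and quantile normalization. The 3 control values and that of HDM rat 1 are background readings, so no order among them is given.

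Prg3, on the list of further granule genes, stood at -6.86, -6.41 and -7.53 in control lungs, none of them well above background. In HDM lungs it stood at -5.51, -3.12, -3.96, -4.13 and -4.27, all well above background. The groups did not overlap. With each control signal raised to the lowest signal well above background on its array, the HDM mean of Prg3 was at least 3.29-fold higher. This bound does not count the spread between rats. The measured log2 difference of Prg3 was 2.73 ± 0.50 (SE). As a fold, its 95% interval was 3.00 to 14.8, with control values that are background readings. The adjusted p of 0.0581 (limma) missed the threshold, and the exact permutation test gave its smallest possible p, 0.0179. Leaving out 1 rat at a time gave adjusted p-values from 0.0278 to 0.201, and Prg3 passed in 1 of these 8 fits. It passed also with array weights (0.0474). With dim probes left out the adjusted p was 0.0257, but Prg3 met that filter through the HDM lungs alone. With adjustment over only the probes past 1.5-fold it was 0.00566, where probes were picked by the fold change under test. With normexp and quantile normalization, whose offset of 50 is added to every signal, the log2 difference was 0.47 and the adjusted p 0.0810. Among the HDM rats, HDM rat 2 was the highest and HDM rat 1 the lowest on the probes of all 3 granule genes.

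**Figure D1:**
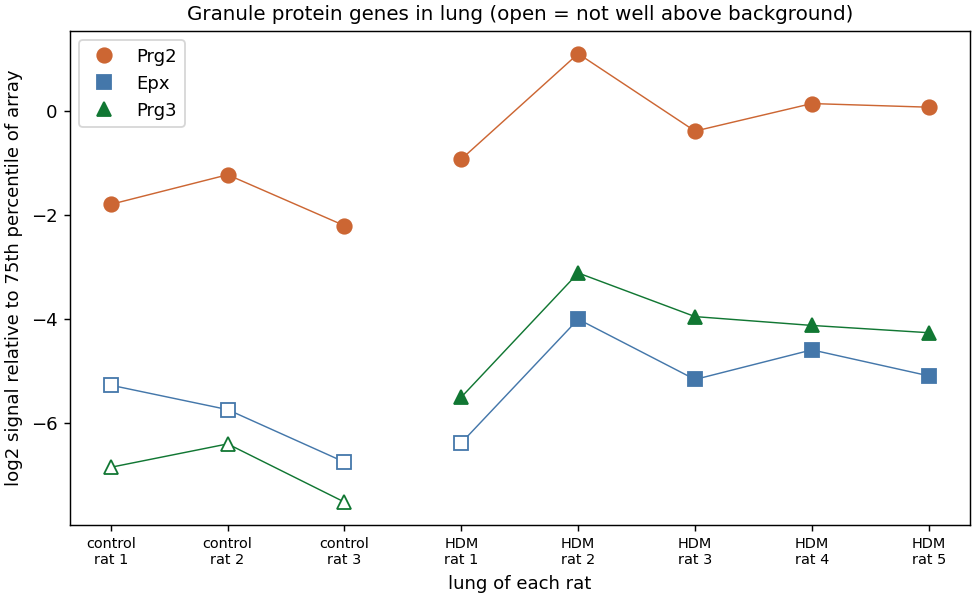
Log2 signal of Prg2, Epx and Prg3 in the lung of each rat, relative to the 75th percentile of the array, with open symbols for spots not well above background and lines joining the rats of a group. HDM rat 2 was the highest and HDM rat 1 the lowest HDM rat for each gene, and heights are not comparable between genes.

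Across the 8 lung arrays, the symbols with the highest correlation with Prg2 among 12607 compared were Prg3 (r = 0.97, n = 8), Tmem198b and Mpzl2 (both r = 0.95). Symbols were compared where they were well above background on at least 5 lung arrays, which Prg3 met through the HDM lungs alone, and its 3 control values are background readings. Of all compared symbols, 1.71% had r above 0.8 with Prg2, and all of these correlations share the difference between the groups. Genes are not independent replicates, and the arrays also share their scaling.

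The stretches of 250 bases before an annotated transcript start of Epx and of Prg3 are shown as RefSeq sequence on GRCr8. These genes were picked because their spots were well above background in 4 and 5 of the 5 HDM lungs and in 0 control lungs. The upstream stretches of Prg2 and Ccl11 were not analysed here. Capitals mark the matches to motifs searched on both strands.

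Epx, chr10:73175181-73175430, minus strand: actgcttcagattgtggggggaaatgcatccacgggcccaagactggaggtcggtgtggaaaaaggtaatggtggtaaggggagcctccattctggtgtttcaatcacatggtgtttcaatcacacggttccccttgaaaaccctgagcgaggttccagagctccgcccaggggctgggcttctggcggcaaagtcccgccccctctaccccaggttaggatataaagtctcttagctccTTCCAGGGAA

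Prg3, chr3:90478904-90479153, plus strand: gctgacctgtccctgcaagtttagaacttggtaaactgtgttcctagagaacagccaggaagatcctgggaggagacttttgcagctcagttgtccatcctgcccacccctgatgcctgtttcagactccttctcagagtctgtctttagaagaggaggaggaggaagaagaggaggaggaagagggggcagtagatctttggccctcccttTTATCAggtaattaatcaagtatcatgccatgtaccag

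The motifs were the STAT forms TTCNNNNGAA and TTCNNNGAA and the GATA forms AGATAA and TGATAA. These were chosen because signals from interleukins 4 and 13 act through STAT6, and eosinophil development depends on GATA1. The Epx stretch held TTCCAGGGAA at bases 10 to 1 before the start, and Prg3 held TTATCA, which is TGATAA on the other strand, at bases 38 to 33. Ccl24 held TTCGAGGAA at bases 129 to 121 and AGATAA at bases 208 to 203, and Ccr3 held AGATAA at bases 29 to 24. The stretches of Il5 and Il5ra held no match, and no match overlapped another. The stretches of Prg3, Ccr3 and Il5ra lie within their gene loci, so the bases before the outer ends of those loci were not searched. Of 33469 rat stretches of the same length, 6.25% held TTCNNNNGAA, 7.67% TTCNNNGAA, 10.3% AGATAA and 7.97% TGATAA.

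Of the eotaxins, Ccl11 (eotaxin-1) lay above the 75th percentile of every lung array. Control lungs stood at 4.62, 4.06 and 4.34 and HDM lungs at 4.89, 4.80, 5.03, 5.35 and 5.13. The lowest HDM rat lay just above the highest control rat, and the scanner signal was 7330 to 9510 against 11700 to 18400. The means were 4.34 ± 0.28 (SD, n = 3) and 5.04 ± 0.22 (SD, n = 5), a log2 difference of 0.70 ± 0.17 (SE). The unadjusted p was 0.00382, the adjusted p 0.151 (limma), and the exact permutation p 0.0179.

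Ccl24 (eotaxin-2) differed less in the lung. It stood at -3.37, -3.31 and -3.49 in control rats and at -3.64, -2.95, -2.96, -3.40 and -3.11 in HDM rats. All 8 spots were well above background and the groups overlapped. The log2 difference was 0.18 with a 95% interval from -0.24 to 0.59 and an adjusted p of 0.896 (limma), so a rise of up to 0.59 lay within the interval.

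The receptor gene Ccr3 had a wide spread in control lungs. Control rat 1 stood at -2.63, while control rats 2 and 3 stood at -4.97 and -5.04. The HDM lungs stood at -1.89, -2.76, -2.94, -2.57 and -3.14, so every HDM rat lay above 2 of the control rats, and control rat 1 lay within the HDM range. Ccr3 was 2.94-fold higher in HDM rats on average (95% interval 1.19 to 7.29), with an adjusted p of 0.375 (limma) and an exact permutation p of 0.0714. Without control rat 1 the log2 difference moved from 1.56 to 2.35 and the adjusted p to 0.0574. With normexp and quantile normalization the difference was 0.48, with an adjusted p of 0.409.

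Il5 and Il5ra did not separate the groups in the lung. Il5 stood at -3.97, -4.88 and -4.52 in control rats and at -4.05, -4.05, -4.20, -4.53 and -4.02 in HDM rats, with control rat 1 the highest of all. The log2 difference of Il5 was 0.29 (95% interval -0.22 to 0.79), with an adjusted p of 0.813 (limma). Il5ra reached a signal well above background on 0 of the 16 arrays, so its values have no order and no fold is given.

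Over all 7 genes, 3 (Ccl11, Ccr3 and Prg2) had an unadjusted limma p below 0.05 in the lung, where 10.2% of all probes did. The groups did not overlap for 2 of the 7, with HDM rats higher, as they did for 4.66% of probes. By adjusted p and fold change 0 of the 7 were called, where 0.482% of the 45598 probes were called higher. Of the 6 genes with a lung signal well above background on some array, 6 had a log2 difference above 0, of which Epx reached that signal in HDM rats alone and Il5 turned to -0.015 with normexp and quantile normalization. The median over the 7 genes, Il5ra included, was 0.70, while the median of all probes was 0.0028.

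**Figure D2:**
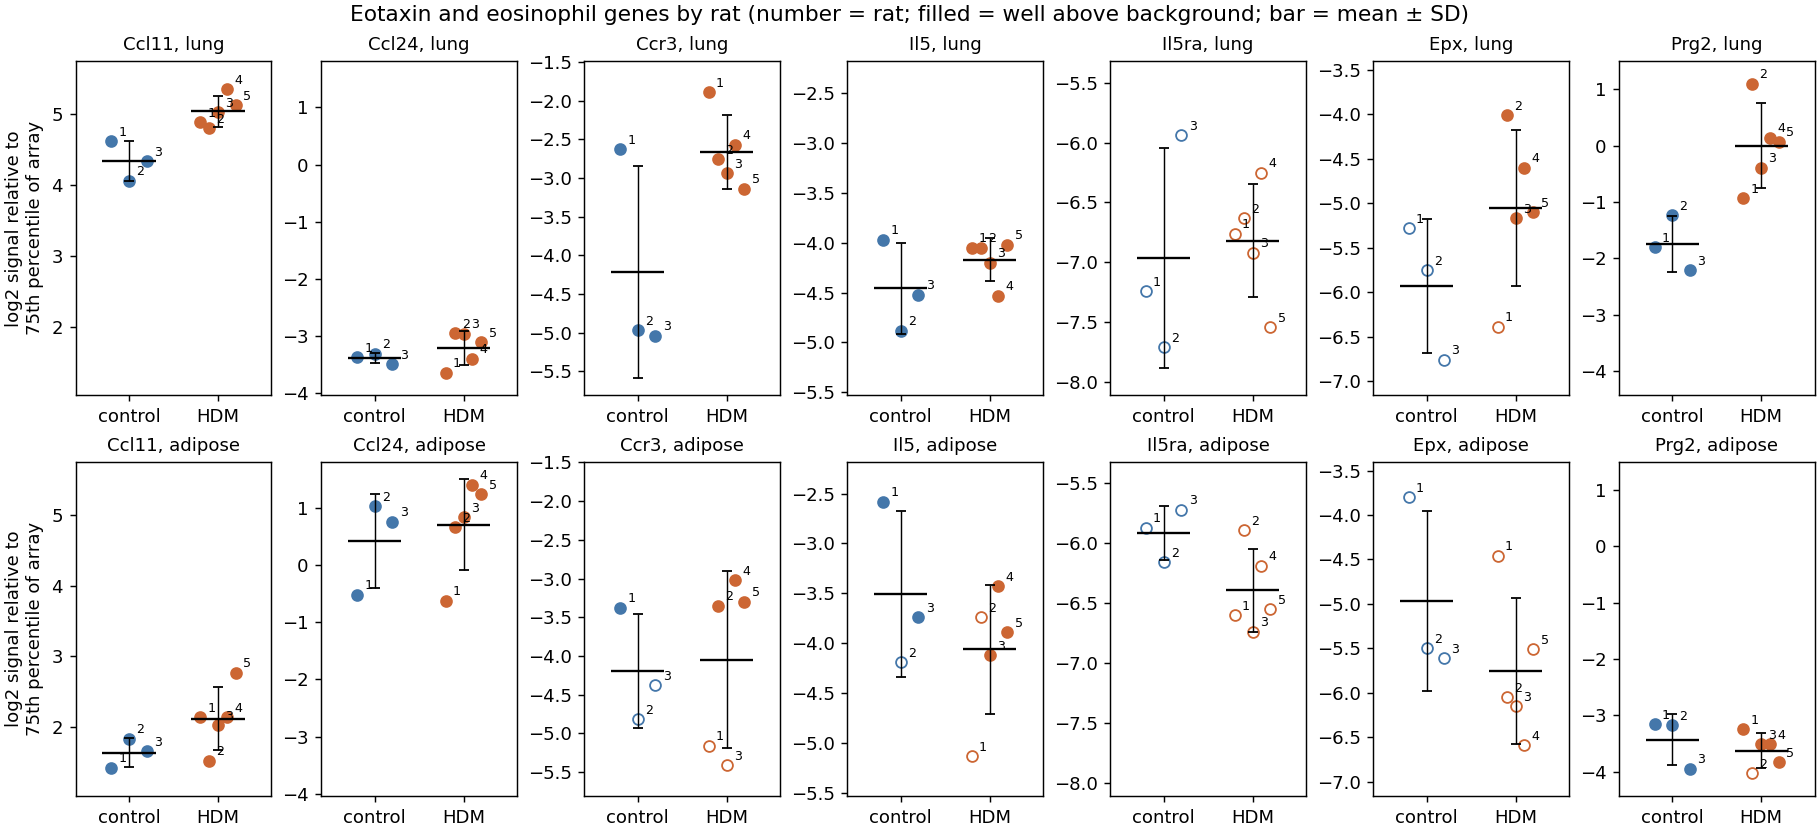
Log2 signal of each of the 7 genes relative to the 75th percentile of the array, in lung (top) and adipose tissue (bottom), with 1 numbered point per rat, filled where the spot was well above background, and bars for the mean ± SD of 3 control and 5 HDM rats. The groups were apart for Ccl11 and Prg2 in the lung and were not apart in any other panel.

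Of the further CCR3 ligands Ccl5, Ccl7, Ccl26 and Ccl28, 0 of 4 were called in the lung and 1 had an unadjusted p below 0.05. That gene was Ccl7, a monocyte chemokine that also binds CCR3, at -1.75, -2.10 and -2.77 in control rats and -1.21, -1.04, -0.86, -1.46 and -0.74 in HDM rats. Its groups did not overlap, and the log2 difference of 1.15 ± 0.26 (SE) had an adjusted p of 0.110 (limma). Ccl5 differed by 0.08 ± 0.17 (SE), with an adjusted p of 0.981. Ccl28 was well above background on 0 of 16 arrays, and Ccl26 was above it on 1 lung array, of a control rat.

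Of the 8 eosinophil surface receptor genes with a probe, 1 was called in the lung, where 0.482% of all probes were called higher. Of the 8, 4 had an unadjusted p below 0.05 (10.2% of probes) and 4 separated the groups with HDM rats higher (4.66% of probes). The gene that rose was Siglec5, a sialic acid-binding receptor of myeloid cells, at -0.13, -0.67 and -0.57 in control rats and 0.43, 0.60, 0.39, 0.76 and 0.37 in HDM rats. Its log2 difference was 0.97 ± 0.16 (SE), with an adjusted p of 0.0425 (limma), and a dimmer probe of the same gene gave 0.99 ± 0.12 (SE) and 0.0147. Leaving out any 1 rat moved the adjusted p of the brighter probe to between 0.0517 and 0.193, while the log2 difference stayed between 0.86 and 1.13. With the slide row as a block the difference was 0.83 and the adjusted p 0.556. The others with groups apart were Csf2rb, Csf2ra and Adgre1, with log2 differences of 0.75, 0.53 and 0.64 and adjusted p-values of 0.136, 0.194 and 0.230. Csf2rb and Csf2ra encode receptor chains for the growth factor GM-CSF, and Csf2rb, whose chain interleukin 5 also uses, was not well above background in control lungs. The other receptor genes did not separate the groups: Ptgdr2, the prostaglandin D2 receptor, differed by -0.56 ± 0.26 (SE; adjusted p = 0.535, limma), Il3ra by -0.06, Hrh4 by 0.02 and Il1rl1 by 0.28. These receptors are carried by other myeloid cells as well. Siglec8 was not matched to a probe.

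The other eosinophil lists held 0 called genes in the lung. Of the granule and secretory RNase list, Prg3 had an unadjusted p below 0.05 and Rnase2, Rnase3 and Alox15 did not, with log2 differences of 0.10, -0.18 and 0.55. Ear1 and Ear11 were not matched to a probe, and RNases of this family are close in sequence, so that a probe may not tell them apart. Of 5 transcription factor genes of the eosinophil lineage, Cebpe, needed for the granules of eosinophils and neutrophils, had an unadjusted p below 0.05 (log2 difference 1.02 ± 0.31, SE; adjusted p = 0.258, limma). Gata1 and Gata2 differed by 0.48 and 0.12. Of the 5 measured genes of interleukin 4 and 13 signaling, 0 had an unadjusted p below 0.05, Il4 differed by 0.75 ± 0.34 (SE; adjusted p = 0.521, limma), and Il13 was above background in 2 control and 0 HDM lungs. Il4ra was not matched to a probe. The growth factor gene Csf2 differed by -0.04 ± 0.16 (SE), and Il3 was not well above background in the lung.

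**Figure D3:**
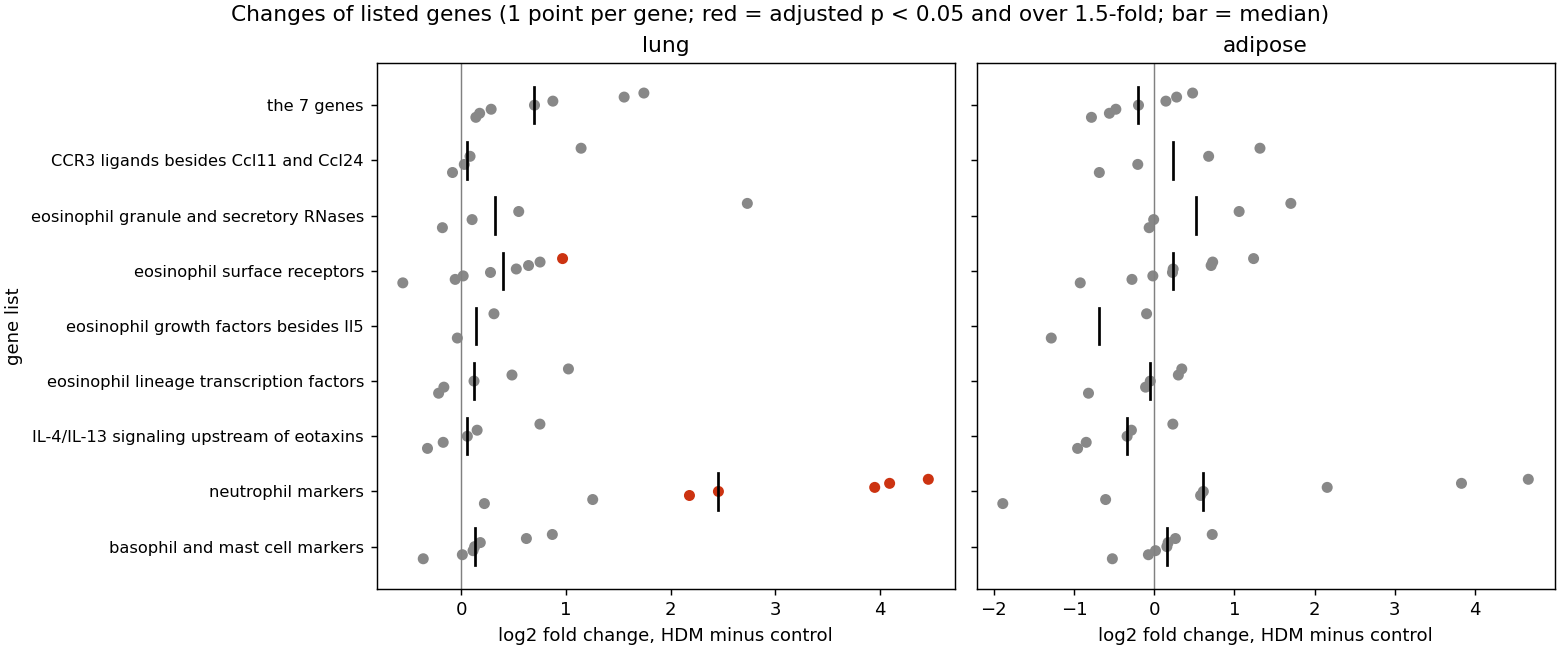
Log2 fold change, HDM minus control, of each gene of 9 lists in lung (left) and adipose tissue (right), with 1 point per gene, red where a gene was called, and a bar for the median of the list. In the lung 5 of 7 neutrophil markers and Siglec5 were called, and in adipose tissue no gene was.

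Among the marker lists of other cells, that of neutrophils moved most with the groups in the lung. Of 7 neutrophil markers, 5 (S100a8, S100a9, Mmp8, Csf3r and Cxcr2) rose in the lungs of HDM rats, with log2 differences from 2.18 to 4.46. The mean level of the 7 markers ranged from 1.85 to 2.53 in HDM lungs and from -0.60 to -0.45 in control lungs. Lcn2 differed by 0.22 and Camp by 1.26 and neither was called. Basophils also carry CCR3. Of 7 basophil and mast cell markers with a probe, 0 were called and the mean level ranged from -0.56 to -0.19 in HDM and -0.72 to -0.44 in control lungs. Hdc, the histamine-forming enzyme, separated the groups at 0.87 ± 0.20 (SE; adjusted p = 0.123, limma), Fcer1a differed by 0.62 ± 0.26 (SE; adjusted p = 0.463), and the other 5 had unadjusted p-values above 0.05. T cell markers, 0 of 5 called, had a median log2 difference of 0.05. Of the bone marrow markers, Elane and Ctsg were well above background on 0 arrays, Prtn3 was in 4 of 5 HDM and 1 of 3 control lungs (log2 difference 0.24 ± 0.25, SE), and Mpo was not matched. The part of other cells in the values of Siglec5, Csf2rb, Csf2ra, Adgre1, Cebpe, Ccl7 and Ccr3 was not tested.

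The position of the arrays on the slide also moved with the groups. All lung arrays lay on 1 slide and all adipose arrays on another, with HDM rats 1 to 4 in the first row and HDM rat 5 and the 3 control rats in the second. Within the second row, HDM rat 5 lay above the mean of the control lungs by 1.82 for Prg2, 0.79 for Ccl11, 1.08 for Ccr3 and 0.83 for Epx on the log2 scale. With the row as a block, which leaves this 1 rat to carry the difference, adjusted p-values were 0.697 for Prg2, 0.650 for Ccl11 and 0.908 for Ccr3 (limma). In adipose tissue, HDM rat 5 minus the control mean was 1.12 for Ccl11, 0.81 for Ccl24 and -0.40 for Prg2. The mean of HDM rats 1 to 4 minus HDM rat 5 was -0.81, -0.67 and 0.25 for the same genes there. Spots well above background made up 62.2% to 68.8% of the lung arrays.

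In adipose tissue, Ccl11 stood at 1.43, 1.84 and 1.66 in control rats and 2.14, 1.53, 2.03, 2.14 and 2.77 in HDM rats. HDM rats 1, 3, 4 and 5 lay above all control rats, and HDM rat 2 lay below 2 of them. The log2 difference was 0.48 with a 95% interval from -0.15 to 1.11, an adjusted p of 0.624 (limma) and an exact permutation p of 0.143.

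Ccl24 stood at -0.52, 1.03 and 0.76 in control adipose tissue and at -0.62, 0.66, 0.84, 1.41 and 1.24 in HDM adipose tissue. The lowest values were those of control rat 1 and HDM rat 1. On the same 2 arrays the mean level of 5 epididymis markers was 8.97 and 8.81, against -5.66 to -3.19 on the other 6, and the part of this in the Ccl24 values was not tested. The log2 difference of Ccl24 was 0.28 (95% interval -0.94 to 1.497), with an adjusted p of 0.860 (limma). Without control rat 1 it was -0.19.

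The granule genes Prg2, Epx and Prg3 were dim in adipose tissue. Prg2 stood at -3.16, -3.18 and -3.95 in control rats and -3.25, -4.03, -3.51, -3.51 and -3.83 in HDM rats, with overlapping groups and 7 of 8 spots well above background. Its log2 difference was -0.20 (95% interval -0.80 to 0.40), with an adjusted p of 0.820 (limma), and its sign turned with quantile or median scaling. Epx and Il5ra were well above background on 0 adipose arrays. Prg3 was above it in 1 HDM rat.

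Ccr3 was well above background in 1 of 3 control and 3 of 5 HDM adipose samples, and Il5 in 2 of 3 and 3 of 5. Their log2 differences were 0.15 ± 0.66 and -0.56 ± 0.47 (SE), with adjusted p-values of 0.947 and 0.767 (limma), and both groups spanned similar ranges. Without HDM rat 1 and control rat 1 the difference of Il5 was 0.17.

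Of the 7 genes in adipose tissue 0 were called, where 0% of all probes were called higher, and 4515 probes had an unadjusted limma p below 0.05. Of the 7, 0 had an unadjusted p below 0.05, where 9.90% of probes did, and 0 separated the groups in either direction, where 6.26% did. The median log2 difference of the 7 genes was -0.20 and that of all probes -0.15. Of the 5 genes with a signal well above background on some adipose array, 3 had a difference above 0. Of the 28 further listed pathway genes with a probe, 0 were called in adipose tissue. Of the neutrophil markers there, 0 of 7 were called, while S100a8, S100a9 and Csf3r separated the groups with log2 differences of 4.66, 3.83 and 2.16. Csf3r was well above background in 0 of 3 control and 4 of 5 HDM rats, so its separation rests in part on background readings. S100a8 was well above background in 2 of 3 control and 5 of 5 HDM rats. The groups overlapped for Cxcr2, Lcn2 and Camp, which differed by 0.61, -1.89 and -0.61. Mmp8 was well above background on 0 adipose arrays. The mean level of the 7 markers was -1.65 to -0.84 in HDM and -2.95 to -2.19 in control adipose tissue. The arrays of the adipose slide were less bright, with a 75th percentile signal of 111 to 240 against 376 to 488 in the lung. Adipose HDM rat 2 had 1224 outlier spots against 355 to 444 on the other adipose arrays, and outlier spots were left out.

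**Figure D4:**
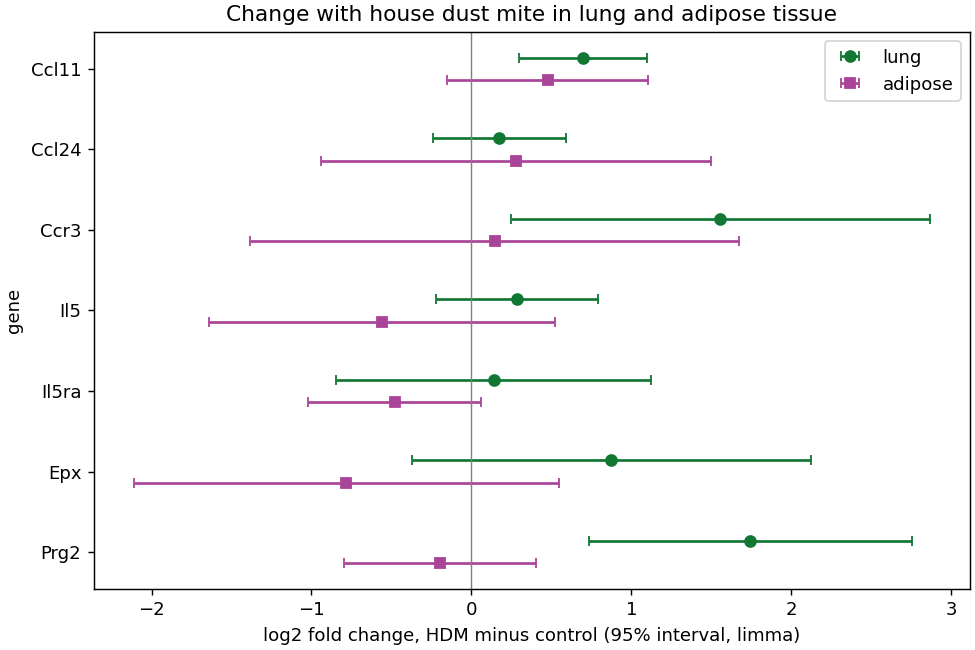
Log2 fold change, HDM minus control, of the 7 genes in lung (circles) and adipose tissue (squares), with 95% intervals from limma. The intervals of Ccl11, Ccr3 and Prg2 in the lung lie above 0, and no interval in adipose tissue excludes 0.

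The paper states that both tissues came from the same animals, and the samples were matched by group and replicate number. On that basis the lung and adipose changes were set against each other as a difference per rat. For Prg2 the lung change exceeded the adipose change by 1.94 ± 0.57 (SE; 95% interval 0.63 to 3.26), with an exact permutation p of 0.0357. Of the 7 genes, 0 were called, where 0.00219% of probes were called higher, and 1 (Prg2) had an unadjusted limma p below 0.05, where 7.74% of probes did. The difference for Epx was 1.66 ± 0.88 and for Ccr3 1.41 ± 0.78 (SE), with adjusted p-values of 0.686 and 0.693 (limma), and the adipose values of Epx are background readings. For Ccl11 it was 0.22 with a 95% interval from -0.49 to 0.93, and for Ccl24 -0.10 with an interval from -1.24 to 1.04, so these data did not separate the changes of the 2 tissues for either eotaxin.

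The levels of single probes also differed between the tissues of a rat, on arrays each set to its own percentile. Ccl11 was higher in lung than in adipose tissue in 8 of 8 rats, by 2.22 to 3.27 with a median of 2.88 on the log2 scale. Ccl24 was the reverse, with lung below adipose tissue in 8 of 8 rats and differences from -4.81 to -2.85. Prg2 was higher in lung in 8 of 8 rats, by 1.36 to 5.13, with 7 of 8 adipose spots well above background. The other genes were at or near background in many adipose samples, and no order between the tissues is given for them. Tissue and slide cannot be told apart. The lung and adipocyte markers went with the tissue labels. The mean level of 5 lung epithelium markers was 7.98 to 8.26 in lung and -3.93 to -2.86 in adipose tissue. That of 5 adipocyte markers was 5.17 to 6.54 in adipose tissue and -4.06 to -0.42 in lung. The adipose arrays of control rat 1 and HDM rat 1 also carried epididymis markers, at mean levels of 8.97 and 8.81. On the other adipose arrays these stood at -5.66 to -3.19. The part of this in the differences between tissues was not tested.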

How the data were processed

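Total RNA (50 ng per sample) was labeled with Cy3 and hybridized to Agilent rat arrays. The authors deposited the spot intensity of each array on a linear scale, background-subtracted by Agilent Feature Extraction 12.0.3.1, and a table of log2 values made in GeneSpring GX 15.5. That table has 39 cells that hold a month with a number, which were set to missing. No sample column was left unused.

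The processed signal was used. After control probes and outlier spots were removed, log2 values were averaged per probe and the 75th percentile of each array was subtracted. The HDM group was compared with the control group in lung, in adipose tissue and on the difference lung minus adipose of each rat, using R 4.3.3 and limma 3.58.1 (functions lmFit and eBayes), with files read by jsonlite 2.0.0 and the package data.table (1.17.8). Adjustment was by Benjamini-Hochberg over 45598 probes. A probe was called at an adjusted p below 0.05 and a fold change above 1.5. The t-test of the methods was an alternative. Single genes were compared by two-sided exact permutation tests. A fold given as "at least" compares the HDM mean with, for each control array, the higher of its lowest signal well above background and the signal of the probe. Scripts were tested on simulated data. Figures used matplotlib 3.10.9 and pandas 2.3.3 in Python 3.11.15.

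Symbols came from the RefSeq accessions of the probes and a table of 47357 rat genes (GRCr8), and 21229 probes received one. The brightest probe of a gene in a tissue was used. Named were the 7 genes, listed pathway genes that were called or not measured, and for each of the 7 genes above background on at least 5 lung arrays the 3 symbols most like it. Other listed genes given with values, Prg3, Ccl7 and Cebpe among them, were chosen after their values were seen. The members, lists and alternatives were chosen with earlier results of these data known. Other scalings, tests, filters, blocks and leaving out arrays were tried. The normexp correction used the median spot signal. Precision is limited by the number of arrays.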

Additional observations from a re-analysis of the deposited data

How the results depend on the processing

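The count of genes called among the 7 in the lung stayed at 0 except that it was 2 (Ccl11 and Prg2, adjusted p = 0.0187 and 0.0198, limma) when p-values were adjusted over only the probes past 1.5-fold. That setting tests fewer probes, picked by the fold change under test. The count was 1 (Ccl11, log2 difference 0.81, adjusted p = 0.0430) with normexp and quantile normalization, where the cause was not tested. Leaving out 1 rat at a time gave 0 in each tissue and for the difference between them, and in adipose tissue and for that difference every alternative gave 0. Prg2 in the lung ranged from 1.37 to 2.00, Ccl11 from 0.56 to 0.84 and Ccr3 from 0.48 to 2.35 over the 21 alternatives. Siglec5 lost its call in 13 of 21. With the replicate number as a block, 0 genes and 0 probes were called in either tissue. Rats of the same number did not deviate together in the lung (r = -0.06, -0.08 and 0.05, with 0.59, 0.14 and 0.10 in adipose tissue), so the numbers were not taken to pair the rats. Lung and adipose arrays of the same group and number were taken as 1 rat, and there r ran from -0.10 to 0.11.

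Signs turned for genes that were not called. In the lung, Il5 was -0.015 with normexp and quantile normalization, and Il5ra was -0.58 with the slide row as a block and -0.24 to 0.65 over the fits that left out 1 rat. In adipose tissue Prg2 was 0.10 with median scaling, 0.17 with quantile and 0.007 with normexp and quantile normalization. Ccr3 there was -0.044 scaled to Gapdh and Hprt1, -0.45 with the replicate block, -0.029 without the array with many outlier spots and -0.17 to 0.55 without 1 rat. Ccl24 there was -0.13 with the replicate block and -0.19 to 0.61 without 1 rat, and Il5 was 0.11 with array weights and 0.17 without both arrays with epididymis genes. The lung change minus the adipose change of Ccl11 was -0.13 with median scaling and -0.016 to 0.47 without 1 rat, and that of Ccl24 was 0.15 without HDM rat 1 and control rat 1 and -0.36 to 0.38 without 1 rat. The cause of these was not tested.

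The 220 higher and 170 lower probes called in the lung became 792 and 537 with adjustment past 1.5-fold, 397 and 289 with dim probes left out, 383 and 322 with array weights and 18 and 7 with the slide row as a block. Leaving out 1 rat gave 64 to 168 higher and 34 to 165 lower. Adipose tissue, with 0 called, gave 16 higher and 322 lower with array weights, 6 and 22 with adjustment past 1.5-fold and at most 4 and 3 otherwise. For the difference between tissues, 1 higher became 28 higher and 8 lower with normexp and quantile normalization, 24 and 3 with the rat as a random block and 17 and 3 without pairing. Each of the 7 genes has 1 probe, so a second probe gave no value. Il5ra and Epx lay at or near background, which limits what their values show.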

Other observations

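In adipose tissue, Rnase3, an RNase gene of the granule list, stood at -3.98, -1.75 and -2.10 in control rats and at -0.81, -0.76, -1.47, 0.19 and -1.69 in HDM rats. Control rat 1 was not well above background. The groups did not overlap, and the log2 difference of 1.70 ± 0.60 (SE) had an adjusted p of 0.427 (limma). Without control rat 1, whose array carried the epididymis markers, it was 1.02, and with normexp and quantile normalization 0.75. The groups overlapped for the other measured genes of that list. There Rnase2 differed by 1.06 ± 0.68 (SE), Alox15 by -0.007 and Prg3, well above background in 1 HDM rat, by -0.06. Ccl5, a CCR3 ligand of T cells and other cells, stood at 2.85, 1.98 and 1.87 in control and at 1.79, 1.55, 1.37, 1.24 and 1.80 in HDM adipose tissue. Its groups did not overlap, HDM rats were lower, and the difference of -0.68 ± 0.27 (SE) had an adjusted p of 0.468 and was -0.38 without control rat 1. Ccl7 stood at -1.31, -0.77 and -1.04 in control and at -0.96, -0.16, 1.28, 0.74 and 0.49 in HDM adipose tissue, with a difference of 1.32 ± 0.48 (SE) and an adjusted p of 0.440. Rnase3, Ccl5 and Ccl7 were chosen after their values were seen, and 6.26% of all probes separated the groups in adipose tissue. The neutrophil markers S100a8, S100a9 and Csf3r were higher in HDM adipose tissue by 4.66, 3.83 and 2.16, with groups apart. Their adjusted p-values were 0.154, 0.0853 and 0.476 (limma). Csf3r was well above background in 0 control and 4 of 5 HDM rats there. Lcn2 and Camp of the same list differed by -1.89 and -0.61. The part of neutrophils in the values of Rnase3, Ccl5 and Ccl7 was not tested.

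Of the genes most like Ccl11 over the 8 lung arrays, Armcx6 and Ltb4r had r = 0.96 and Sash3 r = 0.95. For Ccr3 they were Kcnab1 (r = 0.98), Padi2 and Retnlg (both r = 0.97), for Ccl24 Carmil3 (r = 0.95), Hacd2 (r = 0.94) and Cma1 (r = 0.93), and for Il5 Anxa11 (r = 0.96), Pde3b and Vch (both r = 0.92). These values describe 8 arrays that share the difference between the groups. Lymph node and B cell markers with a probe, 0 of 4 called in either tissue, had a median log2 difference of -0.33 in lung and 0.13 in adipose tissue, and Ms4a1 and Cd79a were not matched to a probe.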
